A study of Mus musculus with 16 samples.

Results

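The mitochondrially encoded genes are the 37 genes of the mouse mitochondrial chromosome, chosen as every gene of the counts table whose symbol starts with mt- and which GENCODE M21 places on chrM of GRCm38. They are 13 protein-coding genes (mt-mRNA), 2 ribosomal RNA genes (mt-rRNA) and 22 transfer RNA genes (mt-tRNA), of 45706 genes in the table, and all 37 chrM genes of the annotation were found. The choice used position only, no measured value. Ear skin of 8 male C57BL/6J mice was sequenced from a biopsy of one ear at 24 months and of the other ear at 30 months, which gave 16 libraries in 8 pairs of the same animal. The labels call the age groups young and old and give ages of 23.8 to 24.4 and of 29.0 to 30.1 months. The labels name no altered genotype and no treatment, which leaves age as the contrast, and age, the ear clipped and the day of sampling cannot be told apart. The ear punch holds all cell layers of the ear, and each library is a bulk sample, in which fewer cells of a type and less RNA per cell cannot be told apart.

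Mitochondria keep a small circular genome of their own. It codes for core subunits of the respiratory chain complexes I, III and IV and of the ATP synthase (complex V), and for the rRNAs and tRNAs that translate them, while all other mitochondrial proteins are made from nuclear genes and imported. Both strands are transcribed as long precursors, and tRNAs that lie between the other genes are cut out, which frees the mRNAs and rRNAs on either side. Most genes lie on the plus strand of the reference (here called heavy-strand genes, after the promoter they are read from), whereas mt-Nd6 and 8 tRNAs lie on the minus strand (light-strand genes). Muscle is a tissue rich in mitochondria, skin much less so.

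Counts on genes came to 22967222 in the shallowest and 36162431 in the deepest library (median 28922265). The mitochondrially encoded genes took 2.17% to 4.54% of these counts, with a median of 2.77% at 24 months and of 3.24% at 30 months. The mt-mRNAs alone held 611293 to 1486869 counts per library, the mt-rRNAs 11961 to 26476 and the mt-tRNAs 1818 to 4040. The libraries were made with a kit that selects polyadenylated RNA and does not mark the strand, so the rRNA and tRNA values are levels among polyadenylated RNA and not tissue amounts, and reads from either strand of a gene cannot be told apart. Keratinocyte markers were present in every library (9 of 9 genes, summed level 21702 to 33394 CPM, which are counts scaled to a common library size with TMM factors), as were skeletal muscle markers (18 of 18 genes, 1555 to 17337 CPM).

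Several members have near-identical copies in the nuclear genome, and 16 nuclear genes share at least 1 stretch of 50 bases, the read length, with a member. A block of 7 pseudogenes on chr1 (chr1:24611535-24616197, minus strand of GRCm38) copies mt-Nd4, mt-Nd4l, mt-Nd3, mt-Co3, mt-Atp6, mt-Co2 and mt-Co1. The first 50 bases of each of 3 such copies are shown with the matching stretch of the member, taken from the GENCODE M21 transcripts, because they show how few bases a read can use to separate them. Capitals mark the bases that differ.
mt-Nd3 (chrM:9459-9508, plus strand): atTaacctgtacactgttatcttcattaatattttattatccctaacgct
Gm28438 (chr1:24613070-24613119, minus strand): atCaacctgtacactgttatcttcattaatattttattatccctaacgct
mt-Co1 (chrM:6381-6430, plus strand): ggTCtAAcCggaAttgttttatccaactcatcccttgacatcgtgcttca
Gm29216 (chr1:24616148-24616197, minus strand): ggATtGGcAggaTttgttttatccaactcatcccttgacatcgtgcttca
mt-Co3 (chrM:8607-8656, plus strand): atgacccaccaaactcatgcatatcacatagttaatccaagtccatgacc
Gm28437 (chr1:24613922-24613971, minus strand): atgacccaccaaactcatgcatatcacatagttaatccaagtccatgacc
With positions counted from 1 at the first base of the member, T3C was the only difference between mt-Nd3 and Gm28438 over 345 bases. The 6 differences of Gm29216 from mt-Co1 over 492 bases were T1056A, C1057T, A1059G, A1060G, C1062A and A1066T. The other 5 copies, of mt-Nd4, mt-Nd4l, mt-Co3, mt-Atp6 and mt-Co2, were identical to the member over the whole copy.

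The counts on these copies followed the counts on the members. Gm28437 held 0.998 counts for each count on mt-Co3, with a range of 0.986 to 1.005 over the 16 libraries. The ratio was 1.009 for Gm28438 against mt-Nd3, 1.008 for Gm10222 against mt-Nd4l, 0.976 for Gm28661 against mt-Co2 and 1.18 for Gm10925 against mt-Atp6. It was lower where the copy covers only a part of the gene, at 0.399 for Gm28439 against mt-Nd4 and 0.267 for Gm29216 against mt-Co1. The levels of these 7 members are therefore uncertain, since reads that match both places cannot be told apart and the rule by which the authors counted them is not given in the sources used here. A further copy of mt-Co1 on chr2, Gm13340, was 97.6% identical over 1545 bases and one of mt-Nd2, Gm13339, 96.7% identical over 510 bases.

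Some members also overlap each other, and a read that spans an overlap lies partly in both. The 3 longest overlaps are shown with 20 bases on each side on the plus strand of chrM, the shared bases in capitals.
mt-Atp8 and mt-Atp6 (chrM:7907-7989): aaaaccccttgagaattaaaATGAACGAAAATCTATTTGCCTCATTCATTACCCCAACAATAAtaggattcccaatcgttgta
mt-Nd4l and mt-Nd4 (chrM:10147-10193): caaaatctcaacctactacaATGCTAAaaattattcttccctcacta
mt-Nd5 and mt-Nd6 (chrM:13532-13585): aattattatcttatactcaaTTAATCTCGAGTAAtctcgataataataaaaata
The start codon of mt-Atp6 and that of mt-Nd4 open the capitals of the first and second line. The overlap of mt-Atp8 with mt-Atp6 is 43 bases, that of mt-Nd4l with mt-Nd4 7 bases, and that of mt-Nd5 with mt-Nd6, which lie on opposite strands, 14 bases.

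Levels were compared between genes as CPM per kilobase of gene length, as means ± SD over the 16 libraries. Among the mt-mRNAs and mt-rRNAs the highest was mt-Co1, the catalytic core subunit of complex IV, at 4527 ± 880 CPM per kilobase. mt-Atp6 (4098 ± 835), mt-Co2 (4064 ± 762) and mt-Nd1 (3902 ± 891) followed, and mt-Atp6 was above mt-Co2 in 9 of 16 libraries only. mt-Co3 (3087 ± 677), mt-Cytb (2763 ± 677) and mt-Atp8 (2695 ± 541) came next, with mt-Cytb above mt-Atp8 in 11 of 16 libraries. The complex I genes other than mt-Nd1 were lower, at 1685 ± 511 for mt-Nd4, 1665 ± 517 for mt-Nd2, 1352 ± 315 for mt-Nd6, 1192 ± 316 for mt-Nd5, 700 ± 230 for mt-Nd4l and 582 ± 136 CPM per kilobase for mt-Nd3. The 2 rRNAs were below all 13 mRNAs, at 288 ± 60.2 for mt-Rnr1 and 221 ± 44.2 CPM per kilobase for mt-Rnr2.

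This order changed on a scale that counts 50-base windows and allows for reads shared with nuclear copies or with an overlapping member. For that, the length was replaced by the number of 50-base windows that lie in 1 member only, a window that k transcripts of the annotation share counting as 1/k, an alternative chosen after seeing the data. The use of windows and the weights for shared ones were changed together, and their parts were not separated. mt-Atp8 had 0 windows shared with a nuclear copy. On this scale mt-Co2 (9764 ± 1832 CPM per kilobase) and mt-Atp6 (9492 ± 1934) were highest, and mt-Co1 fell to rank 4 at 6362 ± 1236. mt-Atp8 rose to rank 5 at 4866 ± 977, and mt-Nd1 fell to rank 6 at 4122 ± 942. The rRNAs stayed below the mRNAs on both scales, and below the mRNA gene next to them in the order in 16 of 16 libraries.

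**Figure D1:**
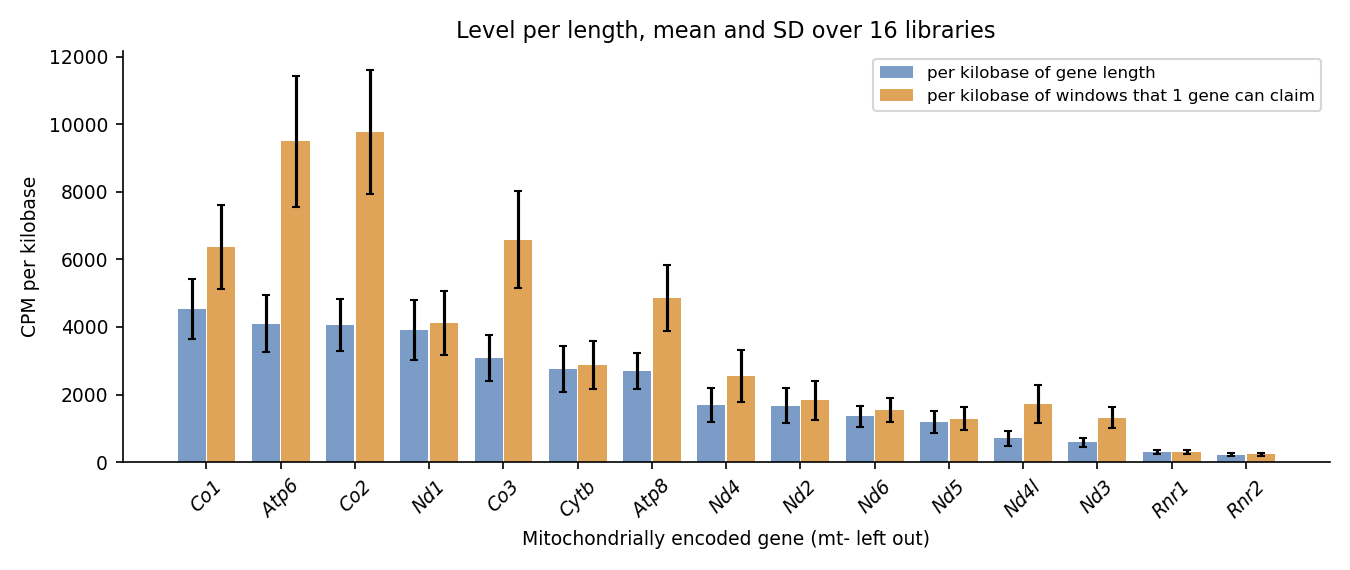
Level of the 13 mt-mRNAs and 2 mt-rRNAs in CPM per kilobase of gene length (blue) and per kilobase of 50-base windows weighted for shared sequence (orange). Bars are means and error bars SDs over 16 libraries. mt-Co1 is first on the blue scale and rank 4 on the orange one, where mt-Co2 and mt-Atp6 lead.

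The first comparison asked whether the members' levels changed between 24 and 30 months within a mouse. Of the 37 members, 24 passed the filter on low counts, which were the 13 mt-mRNAs, the 2 mt-rRNAs and 9 of the 22 mt-tRNAs. None of the 24 passed the test at an adjusted p of 0.05 (quasi-likelihood test of edgeR, with the mouse as a block and Benjamini-Hochberg adjustment over all 21526 genes tested), and neither did any other gene, so 0% of all genes were called. At an unadjusted p under 0.05 there was 1 member, mt-Tc, against 12% of all genes. The DESeq2 Wald test called 228 genes, 1.06% of all, and no member, and edgeR without the mouse block called 3 genes, 0.0139%, and no member. Log2 fold changes of 30 over 24 months lay between -0.12 (mt-Nd4l) and 0.13 (mt-Nd6) for the mt-mRNAs, with 8 of 13 above 0 and a median of 0.06, beside 0.01 over all genes. The 9 tested tRNAs lay between 0.15 and 0.38, all above 0, with a median of 0.25.

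Summed over the 13 genes, the mt-mRNA level ranged from 22760 to 46648 CPM at 24 months, with a median of 26843, and from 21556 to 38319 CPM at 30 months, with a median of 31303. The age groups overlapped. The mean was 29249 ± 7400.0 CPM at 24 months and 30286 ± 6328 CPM at 30 months (SD, n = 8). The log2 change within mice was 0.05 ± 0.51 and was above 0 in 6 of 8 mice, with p = 0.805 in an exact two-sided sign-flip permutation test over the mice, adjusted p = 0.883 over 6 such measures. Single mice moved by more than this mean. The sum was 1.38-fold in mouse 64, 1.37-fold in mouse 13, 1.28-fold in mouse 14, 1.26-fold in mouse 21 and 1.09-fold in mouse 50. It was close to level in mouse 75 (1.02-fold), 0.812-fold in mouse 29 and 0.487-fold in mouse 43, whose library at 24 months had the highest mt-mRNA sum of all. Without mouse 43 the mean log2 change was 0.21, with an exact p = 0.078, where 7 mice allow no p below 0.0156.

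**Figure D2:**
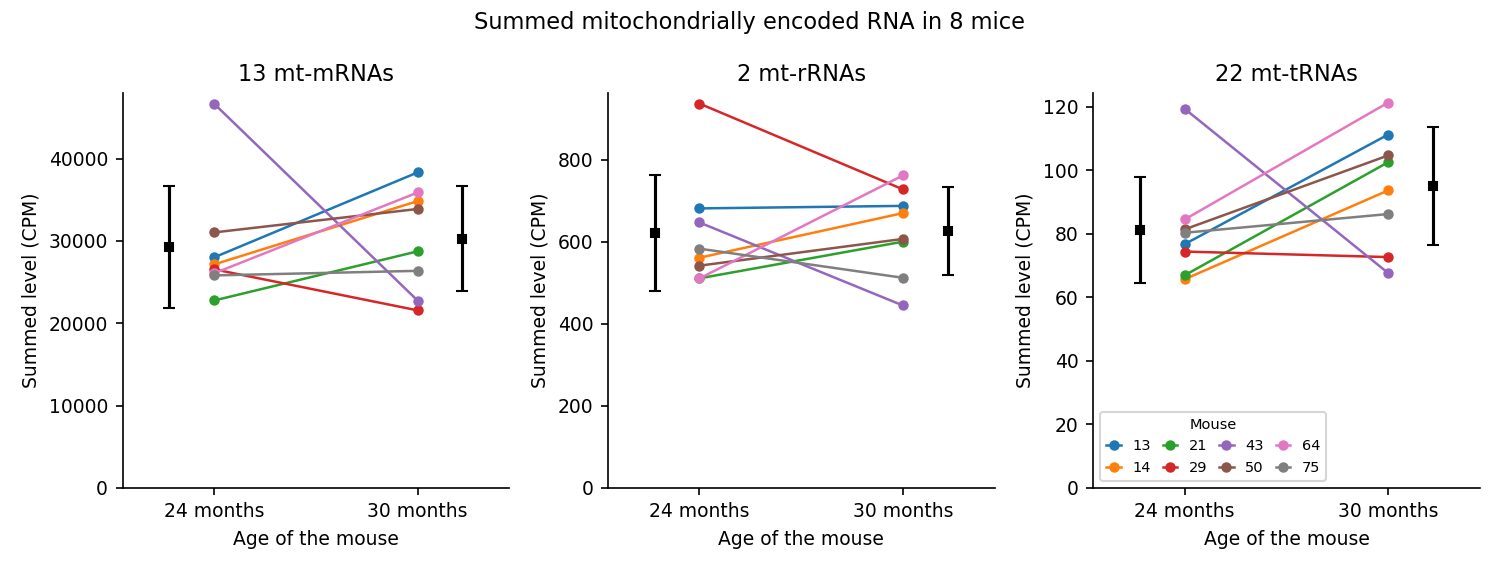
Summed level of the mt-mRNAs, mt-rRNAs and mt-tRNAs in CPM at 24 and 30 months, with 1 coloured line for each of 8 mice. Black squares and bars are means and SDs over the mice. The mt-mRNA sum ranges from 22760 to 46648 CPM at 24 months and from 21556 to 38319 CPM at 30 months, and mouse 43 falls the most.

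Complex I, the NADH dehydrogenase through which most electrons enter the chain, has 7 mitochondrially encoded subunits. mt-Nd1 (chrM:2751-3707) ranged from 2975 to 5812 CPM at 24 months (median 3322) and from 2567 to 4863 CPM at 30 months (median 4024), with a log2 fold change of 0.07 ± 0.17 (SE). mt-Nd2 (chrM:3914-4951) ranged from 1212 to 3188 CPM (median 1485) and then from 1086 to 2469 CPM (median 1739), with 0.08 ± 0.21. Both medians were higher at 30 months although both highest values were lower.
mt-Nd3 (chrM:9459-9806) was one of the lowest mRNAs, at 166 to 304 CPM (median 195) and then 122 to 280 CPM (median 215), with a log2 fold change of -0.02 ± 0.17. mt-Nd4l (chrM:9877-10173) ranged from 162 to 421 CPM (median 189) and then from 128 to 268 CPM (median 188), with -0.12 ± 0.19, the lowest estimate among the mt-mRNAs. mt-Nd4 (chrM:10167-11544) ranged from 1654 to 4339 CPM (median 2087) and then from 1497 to 3083 CPM (median 2371), with -0.01 ± 0.21.
For all 3 genes the highest value was that of mouse 43 at 24 months. mt-Nd5 (chrM:11742-13565), part of the proton-pumping arm, ranged from 1712 to 3865 CPM (median 1949) and then from 1428 to 2779 CPM (median 2129), with -0.03 ± 0.17. mt-Nd6 (chrM:13552-14070, minus strand), the light-strand mRNA, ranged from 493 to 1088 CPM (median 612) and then from 503 to 902 CPM (median 777), with 0.13 ± 0.17, the highest estimate among the mt-mRNAs. It was higher at 30 months in 6 of 8 mice. Adjusted p-values of the 7 genes in edgeR's test lay above 0.76, and the age groups overlapped for each.

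Complex III, which passes electrons from ubiquinol to cytochrome c, has cytochrome b as its mitochondrially encoded subunit. mt-Cytb (chrM:14145-15288) ranged from 2407 to 5290 CPM at 24 months (median 2870) and from 2037 to 3918 CPM at 30 months (median 3294), with a log2 fold change of 0.01 ± 0.17 and an adjusted p of 0.993 in edgeR's test. Its change was below that of the mt-mRNA sum in 8 of 8 mice, by 0.05 ± 0.05 on the log2 scale on average, a pattern picked out of 13 genes and not tested.

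Complex IV, cytochrome c oxidase, passes the electrons to oxygen, and its 3 mitochondrially encoded subunits form the catalytic core. mt-Co1 (chrM:5328-6872) ranged from 5371 to 9973 CPM (median 6407) and then from 5459 to 9065 CPM (median 7406), with a log2 fold change of 0.10 ± 0.15. mt-Co2 (chrM:7013-7696) ranged from 2134 to 3827 CPM (median 2547) and then from 2181 to 3460 CPM (median 2939), with 0.11 ± 0.14. mt-Co3 (chrM:8607-9390) ranged from 1814 to 3644 CPM (median 2217) and then from 1723 to 3129 CPM (median 2601), with 0.06 ± 0.16. The complex IV genes summed to 11814 ± 2452 CPM at 24 months and 12576 ± 2441 CPM at 30 months (SD, n = 8). The change of this sum within mice was not tested. In complex V, the ATP synthase, mt-Atp8 (chrM:7766-7969) ranged from 465 to 838 CPM (median 507) and then from 396 to 688 CPM (median 551), with -0.01 ± 0.13. mt-Atp6 (chrM:7927-8607), the subunit a of the proton channel, ranged from 2195 to 4059 CPM (median 2487) and then from 2067 to 3601 CPM (median 2925), with 0.09 ± 0.15. Adjusted p-values of these 5 genes in edgeR's test lay above 0.77, and their age groups overlapped.

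The mt-mRNAs of a mouse moved together. All 13 were higher at 30 months in mice 13, 14, 50 and 64, and all 13 were lower in mice 29 and 43. In mouse 21 there were 11 higher and 2 lower, and in mouse 75 there were 6 higher and 7 lower. The SD over mice of a gene's log2 change had a median of 0.52 over the 13 genes, and fell to a median of 0.11 when the change of the mt-mRNA sum was subtracted in each mouse. Since the 13 genes make up the sum, this is a description. In mouse 43 the changes of single mRNAs ran from -1.49 (mt-Nd4) to -0.81 (mt-Co2).

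**Figure D3:**
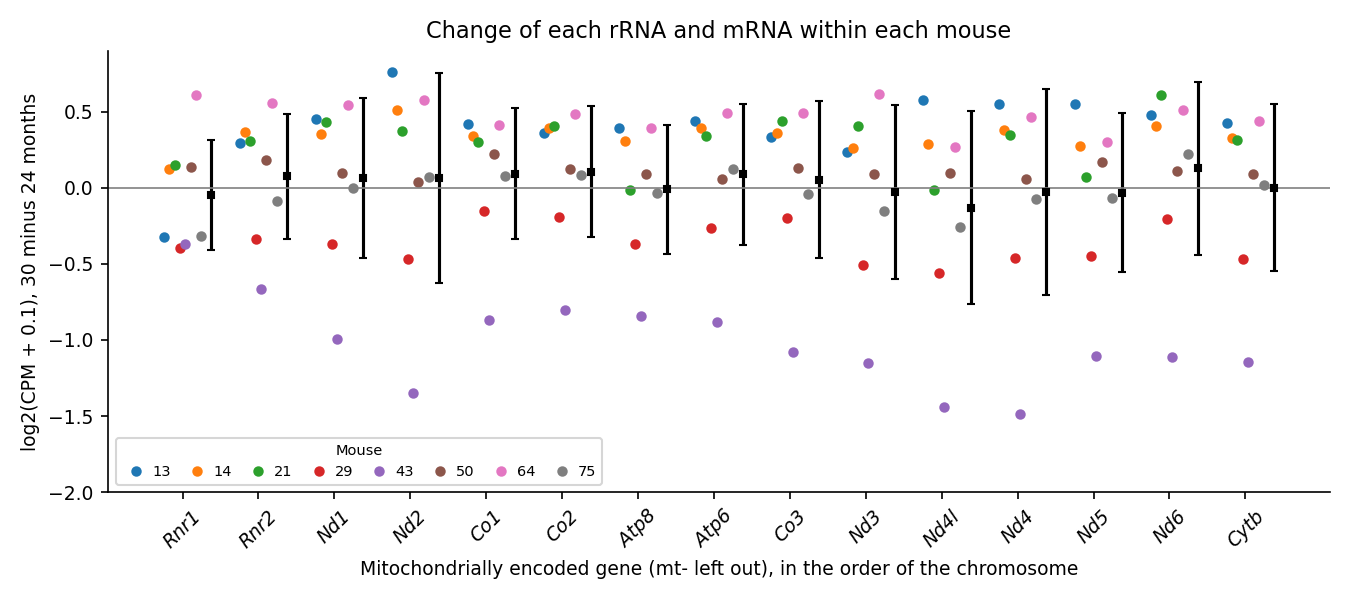
Change of each mt-rRNA and mt-mRNA within each mouse, as log2(CPM + 0.1) at 30 minus 24 months, in the order of the genes on the chromosome. Points are mice, black squares and bars means and SDs over 8 mice. Mouse 43 lies lowest for all 13 mRNAs, from -1.49 for mt-Nd4 to -0.81 for mt-Co2.

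The 2 rRNAs form the core of the small and the large subunit of the mitochondrial ribosome. mt-Rnr1 (12S rRNA, chrM:70-1024) ranged from 211 to 423 CPM at 24 months (median 258) and from 198 to 321 CPM at 30 months (median 272), with a log2 fold change of -0.05 ± 0.12 (SE) and an adjusted p of 0.879 in edgeR's test. mt-Rnr2 (16S rRNA, chrM:1094-2675) ranged from 270.0 to 515 CPM (median 314) and then from 247 to 441 CPM (median 361), with 0.08 ± 0.13 and an adjusted p of 0.824. The age groups overlapped for both genes. Their sum changed by 0.02 ± 0.37 on the log2 scale (SD over 8 mice, exact sign-flip p = 0.883). For each 1000 of mt-mRNA CPM there were 22.05 ± 6.30 of mt-rRNA at 24 months and 21.3 ± 5.20 at 30 months, and the log2 change of this ratio, -0.04 ± 0.27, was below its spread (exact p = 0.703, adjusted 0.883). The ratio of 12S to 16S rRNA was lower at 30 months in 6 of 8 mice, with a log2 change of -0.13 ± 0.27 (exact p = 0.258, adjusted 0.516). It was -0.19 without mouse 43 (exact p = 0.047, not adjusted) and -0.054 without mouse 13 (exact p = 0.516).

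The 22 tRNAs are the smallest members, at 59 to 75 bases, and their counts were uneven. The 8 with the highest mean level were mt-Tc, mt-Tl1, mt-Tp, mt-Ta, mt-Te, mt-Ts1, mt-Tn and mt-Ty. 4 of them are shown 5′ to 3′ on their own strand, since most of the tRNA counts lie on them. Capitals mark the anticodon, found as the triplet with 2 loop bases on each side, enclosed by a stem of 5 bases of which at least 4 pair.
mt-Tc (cysteine, chrM:5192-5257, minus strand): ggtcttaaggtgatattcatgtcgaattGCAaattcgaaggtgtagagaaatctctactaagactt
mt-Tl1 (leucine, chrM:2676-2750, plus strand): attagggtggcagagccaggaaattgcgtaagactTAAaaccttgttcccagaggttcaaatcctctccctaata
mt-Tp (proline, chrM:15356-15422, minus strand): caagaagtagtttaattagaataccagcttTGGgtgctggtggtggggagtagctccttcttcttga
mt-Ta (alanine, chrM:5018-5086, minus strand): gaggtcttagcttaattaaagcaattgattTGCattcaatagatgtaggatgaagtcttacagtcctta
The 8 light-strand tRNAs held 79.8% of all tRNA counts, 33095 over the 16 libraries. The 14 heavy-strand tRNAs held 8393 counts, of which 7531 were on mt-Tl1 and 538 on mt-Tm. The other 12 heavy-strand tRNAs and mt-Tq, on the light strand, had at most 12 counts in any library and did not pass the filter. Per 50-base window the 12 had 0.25 to 2.80 counts over all libraries, mt-Tl1, which lies directly behind the 16S rRNA gene, had 290, and mt-Ta had 242. A light-strand tRNA lies opposite the heavy-strand precursor, and the libraries cannot tell these strands apart.

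mt-Tc ranged from 12.2 to 20.7 CPM at 24 months (median 15.3) and from 12.8 to 27.6 CPM at 30 months (median 20.3). It was higher at 30 months in 7 of 8 mice, all but mouse 43, with a log2 fold change of 0.32 ± 0.14 (SE), an unadjusted p of 0.047 and an adjusted p of 0.409 in edgeR's test. mt-Ta, at 8.57 to 17.3 CPM (median 10.2) and then 9.19 to 17.3 CPM (median 12.9), gave 0.25 ± 0.15 (adjusted p = 0.538, edgeR). The groups overlapped for both. mt-Ty (1.21 to 2.16 and then 1.15 to 2.48 CPM) gave 0.38 ± 0.19, mt-Ts1 (5.45 to 11.6 and then 4.91 to 11.5 CPM) 0.27 ± 0.21 and mt-Tn (3.93 to 7.09 and then 3.76 to 8.64 CPM) 0.26 ± 0.18. mt-Tp (12.3 to 14.7 and then 12.1 to 19.4 CPM) gave 0.16 ± 0.11, mt-Te (7.23 to 15.9 and then 6.99 to 15.1 CPM) 0.16 ± 0.20 and mt-Tl1 (9.35 to 27.0 and then 10.7 to 23.0 CPM) 0.16 ± 0.20. Adjusted p-values of these 6 lay between 0.454 and 0.759 in edgeR's test.

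The summed mt-tRNA level, in which the few tRNAs with most counts weigh most, rose relative to the summed mt-mRNA level. For each 1000 of mt-mRNA CPM there were 2.42 to 3.24 of mt-tRNA at 24 months (median 2.77) and 2.69 to 3.57 at 30 months (median 3.18). The ranges of the age groups overlapped, but the ratio was higher at 30 months in 8 of 8 mice. The log2 change was 0.17 ± 0.09 (SD, n = 8), from 0.06 in mouse 64 to 0.28 in mouse 21, with an exact two-sided sign-flip p of 0.0078, the smallest that 8 mice allow, and an adjusted p of 0.047 over the 6 summed levels and ratios. The scaling of a library cancels in this ratio. Leaving out any 1 mouse left a change of 0.16 to 0.19 with p = 0.0156 in the exact test. That is the smallest p that 7 mice allow, and too high to pass an adjustment over 6 measures. Since all 8 changes were positive, this p was fixed in advance and adds no support. The summed mt-tRNA level itself had a log2 change of 0.22 ± 0.48, positive in 6 of 8 mice (exact p = 0.203, adjusted 0.516). It was 0.37 without mouse 43 (exact p = 0.031, not adjusted) and 0.17 to 0.26 without any other mouse.

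The ratio was also computed over parts of the tRNAs. With the 8 light-strand tRNAs alone it was 0.19 ± 0.16, higher in 7 of 8 mice (exact p = 0.0156), and with the 14 heavy-strand tRNAs alone 0.12 ± 0.28, higher in 4 of 8 mice (exact p = 0.375). With equal weight for each gene in both the tRNA and the mRNA part, it was 0.10 (exact p = 0.375). That used means of log2(CPM + 0.1), and most tRNAs had few counts. Among single tRNAs the change of mt-Tc was above that of the mt-mRNA sum in 8 of 8 mice, by 0.26 ± 0.09 on the log2 scale, and the ratio without mt-Tc was 0.15 ± 0.10, again higher in 8 of 8 mice (exact p = 0.0078). Without mt-Tl1 it was 0.19 ± 0.15, higher in 7 of 8 mice (exact p = 0.0156). The change of mt-Ty was above that of the sum in 7 mice, that of mt-Ta, mt-Ts1 and mt-Te in 6, mt-Tn in 5, mt-Tp in 4 and mt-Tl1 in 3 of 8. The strand alternatives and those without mt-Tc or mt-Tl1 were chosen after seeing the data, and the difference between the strands was not tested.

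**Figure D4:**
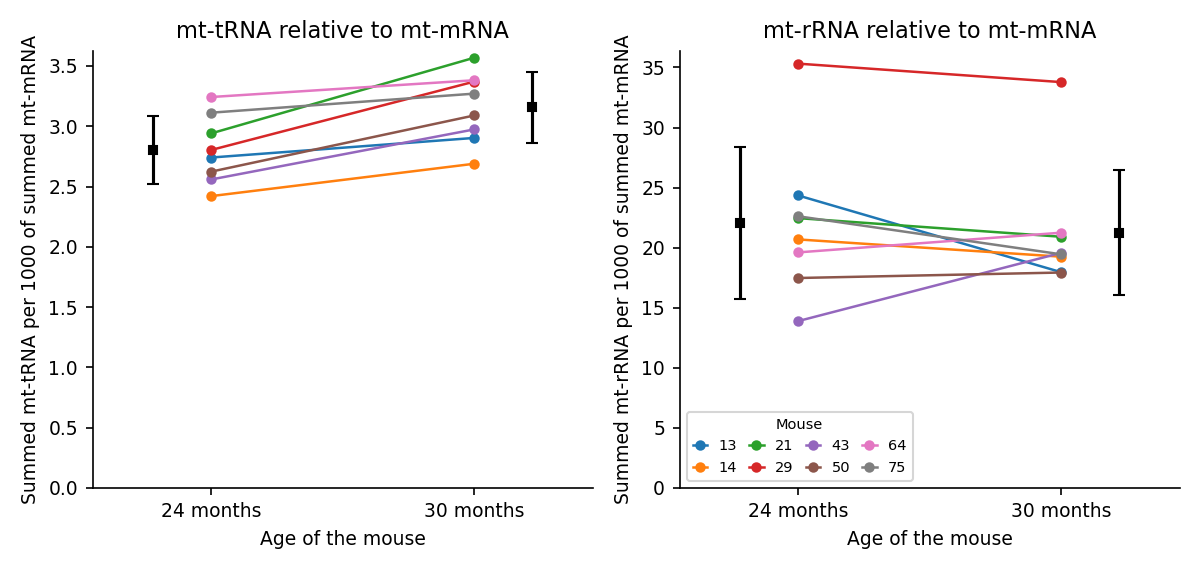
Summed mt-tRNA (left) and mt-rRNA (right) per 1000 of summed mt-mRNA CPM at 24 and 30 months, with 1 line for each of 8 mice and black means and SDs. The left lines all rise, from 2.42 to 3.24 at 24 months to 2.69 to 3.57 at 30 months, and the right lines go both ways.

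The tested light-strand genes as a group lay higher than the tested heavy-strand genes in the estimates. The 8 tested light-strand members, mt-Nd6 and 7 tRNAs, had log2 fold changes from 0.13 to 0.38 with a median of 0.26, and the 16 heavy-strand members from -0.12 to 0.16 with a median of 0.06, beside 0.01 for all genes. Strand went with RNA class, since the 16 were mRNAs and rRNAs apart from mt-Tl1 and mt-Tm. These tRNAs, at 0.16 and 0.15, lay above mt-Nd6 at 0.13. Strand and class were not separated. The ninth light-strand member, mt-Tq, was too low to test, with 1 to 12 counts per library, and was higher at 30 months in 2 of 8 mice, with a mean change of -0.52 ± 0.79 on the log2(CPM + 0.1) scale. With all 8 mice, 1 of the 8 light-strand members, mt-Tc, had an unadjusted p under 0.05 in edgeR's test. So did 0 of the 16 heavy-strand members, against 12% of all genes. Leaving out any mouse other than 43 gave 0 or 1 light-strand and 0 heavy-strand members. Over all genes those fits gave 1833 (without mouse 21) to 2510 (without mouse 64). Without mouse 43, 7 of the 8 light-strand and 2 of the 16 heavy-strand members had an unadjusted p under 0.05 in edgeR's test, against 17.6% of all genes, and all 9 of them were higher, as were 8.98% of all genes. The 9 were mt-Tc (0.47 ± 0.09), mt-Ta (0.41 ± 0.08), mt-Ty (0.56 ± 0.14), mt-Ts1 (0.48 ± 0.12), mt-Tn (0.43 ± 0.12), mt-Nd6 (0.31 ± 0.10), mt-Te (0.35 ± 0.14), mt-Co2 (0.24 ± 0.10) and mt-Co1 (0.24 ± 0.10, log2 fold change ± SE). None passed the adjustment, with adjusted p-values from 0.111 to 0.273 in edgeR's test. Strand here means the strand of the gene. The libraries do not mark the strand of a read, so counts on light-strand genes can include heavy-strand RNA. Genes of a strand share a precursor and are not independent, and the difference between strands was not tested.

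Skeletal muscle markers moved with the mt-mRNAs across mice. The 18 markers, among them the fast myosins and creatine kinase, summed to 1555 to 17337 CPM at 24 months (median 3177) and to 2321 to 13257 CPM at 30 months (median 5762), and none was at 0 in all libraries. In mouse 43 the sum was 17337 CPM at 24 months and 2321 CPM at 30 months, and in mouse 13 it was 1929 and 13257 CPM. Over the 8 mice the change of the marker mean and that of the mt-mRNA sum had a Pearson r of 0.945 (exact permutation p = 0.00077, adjusted 0.0023 over 6 relations) and a Spearman rho of 0.833 (exact p = 0.0154, adjusted 0.031). Without mice 13 and 43 r was 0.817 (n = 6, exact p = 0.040). The part of muscle content in the mt-mRNA changes was not tested. The mean of the 9 keratinocyte markers was higher at 30 months in 3 of 8 mice, with log2 changes from -0.34 (mouse 50) to 0.29 (mouse 13) and 0.09 in mouse 43. That of the 6 fat cell markers was higher in 7 of 8 mice, with -2.39 in mouse 43 but 1.40 in mouse 29, where the mt-mRNA sum was also lower. That of the 5 red blood cell markers was higher in 5 of 8 mice, from -1.89 (mouse 43) to 1.99 (mouse 64). The fibroblast mean was higher in 2 mice, from -1.18 (mouse 29) to 1.89 (mouse 50). The cartilage mean was higher in 2, from -0.66 (mouse 29) to 0.13 (mouse 75). The macrophage mean was higher in 5, from -1.06 (mouse 13) to 1.39 (mouse 50). The sebaceous gland mean was higher in 4, from -0.45 (mouse 21) to 1.19 (mouse 43). Relations of marker sets other than muscle with the mt-mRNA sum were not tested.

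The nuclear partners of the mt-mRNAs moved with them too. For the 82 nuclear genes of complexes I to V, which assemble with the mitochondrially encoded subunits (complex II has nuclear subunits only), r with the mt-mRNA change was 0.967 (exact permutation p = 0.00141, adjusted 0.0025) and rho 0.810 (exact p = 0.0218, adjusted 0.033). Without mice 29 and 43 r was 0.708 (n = 6, exact p = 0.135), which did not pass the test. The mitochondrial ribosomal proteins gave r = 0.827 (exact p = 0.00779, adjusted 0.0093), with rho 0.667 (exact p = 0.083, adjusted 0.0997), and r = 0.676 without mice 21 and 43 (n = 6, exact p = 0.133), which did not pass either. For the genes of mtDNA transcription and mitochondrial RNA processing r was 0.255 (exact p = 0.537) and rho 0.262 (exact p = 0.536). Within the chromosome, r was 0.985 for the tRNA sum (exact p = 0.00045, adjusted 0.0023, rho 0.833 with exact p = 0.0154 and adjusted 0.031) and 0.857 for the rRNA sum (exact p = 0.00166, adjusted 0.0025, rho 0.857 with exact p = 0.0107 and adjusted 0.031). Without mice 29 and 43 the former was 0.871 (n = 6, exact p = 0.025), and without mice 43 and 64 the latter was 0.811 (n = 6, exact p = 0.040). No batch is named in the labels, so no value within batches can be given.

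**Figure D5:**
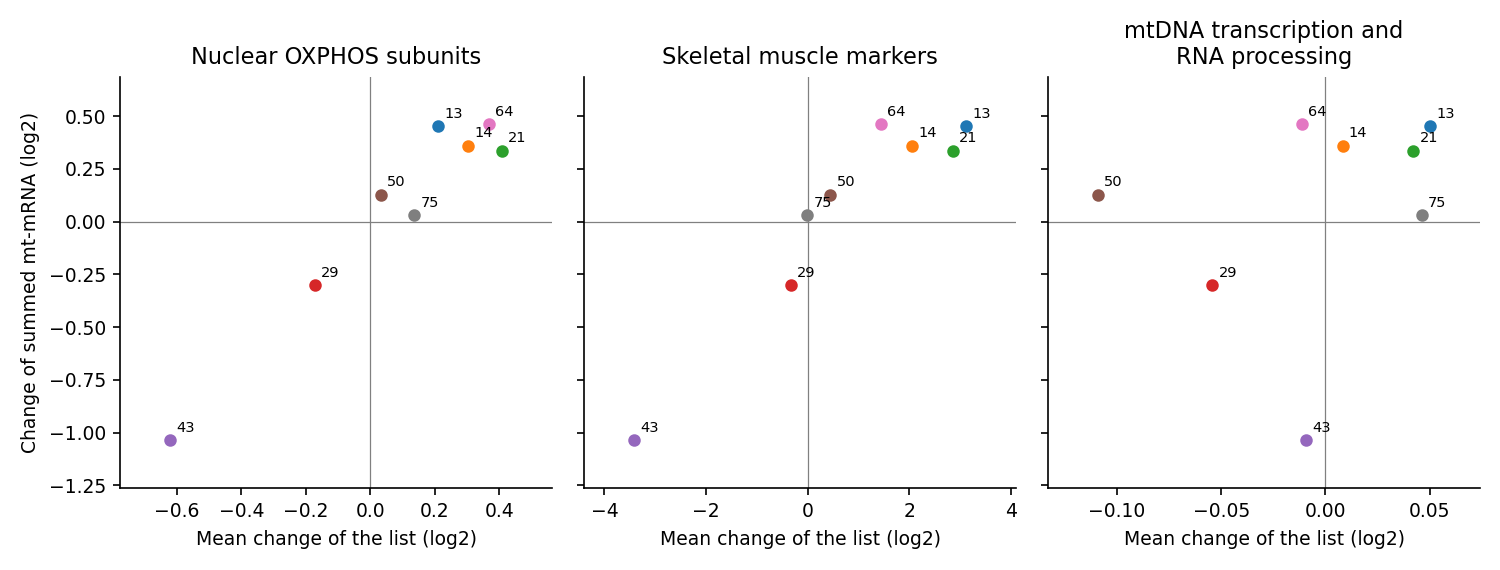
Change of the summed mt-mRNA level (log2, 30 minus 24 months, vertical) against the mean change of the nuclear OXPHOS subunits, the skeletal muscle markers and the genes of mtDNA transcription and RNA processing (log2, horizontal), 1 labelled point for each of 8 mice. Mouse 43 is at the lower left of the first and second panel, where r is 0.967 and 0.945, and r is 0.255 in the third.

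None of the nuclear genes in these lists passed the adjusted threshold in edgeR's test, as was the case for all genes, and their counts at an unadjusted p under 0.05 are to be read against 4.86% of all genes higher and 7.18% lower. Of 42 genes for mtDNA transcription and RNA processing, 1 was higher and 1 lower at that level, with a median log2 fold change of -0.01. Fastkd2, which takes part in assembly of the large mitoribosomal subunit, had -0.23 ± 0.07 (SE, lower in 8 of 8 mice), and Mrm2, which methylates the 16S rRNA, 0.23 ± 0.08 (higher in 8 of 8 mice), with adjusted p-values of 0.278 and 0.338. Of 17 genes for mtDNA replication, Lig3, the DNA ligase that also seals mitochondrial DNA, was lower (-0.33 ± 0.08, in 7 of 8 mice) with an adjusted p of 0.222 in edgeR's test and was called by the DESeq2 Wald test. Ssbp1, which binds single-stranded mtDNA, had 0.15 ± 0.06 and was higher in 8 of 8 mice, with an adjusted p of 0.385 in edgeR's test. In this list 1 gene was higher and 1 lower at an unadjusted p under 0.05. The higher count was 0 without mouse 14, 29, 64 or 75 and with no filter on low counts. It was 2 without mouse 21. All genes at that level, in both directions, numbered 2316, 2004, 2510 and 1874 when mice 14, 29, 64 and 75 were dropped in turn. They numbered 1833 when mouse 21 was dropped, and 2828 with no filter.

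Of 79 tested mitochondrial ribosomal proteins, 6 were higher and 1 lower at an unadjusted p under 0.05, with a median of 0.05. They included Mrps30 (0.18 ± 0.06) and Mrps9 (0.15 ± 0.05), both higher in 8 of 8 mice, and Mrpl49 (-0.24 ± 0.07). Of the 82 nuclear OXPHOS genes none was higher and 2 were lower, Ndufab1 (-0.17 ± 0.07) and Cox6b2 (-0.36 ± 0.14, lower in 8 of 8 mice). These counts depended on single mice. Without mouse 43, 39 of the 82 OXPHOS genes were higher and 1 lower at that level, beside 8.98% and 8.6% of all genes, and 15 of the 79 ribosomal proteins were higher and 1 lower, with none past the adjusted threshold in edgeR's test. The OXPHOS counts were 0 lower and 2 higher without mouse 13, 0 lower and 1 higher without mouse 29, 1 lower without mouse 50 and 0 in either direction without mouse 75. Of the ribosomal proteins, 9 were higher when mouse 29 was left out, 4 when mouse 14 was, and 3 when either mouse 21 or mouse 75 was. Over all genes, higher and lower together, 2593 had an unadjusted p under 0.05 in edgeR's test with all 8 mice. Dropping mouse 13 gave 2448, mouse 14 gave 2316, mouse 21 gave 1833, mouse 29 gave 2004, mouse 50 gave 2495 and mouse 75 gave 1874. With all 8 mice the fold changes of 74 of the 82 lay above 0, with a median of 0.08 beside 0.01 for all genes, of which 51.7% lay above 0. Of 11 biogenesis regulators 1 was higher, Nfe2l2, a transcription factor of the oxidative stress response, at 0.18 ± 0.07 and in 8 of 8 mice, with an adjusted p of 0.369 in edgeR's test. This list's count was 0 without mouse 43, 50 or 64 and with total counts per library. The same count over all genes was 3771, 2495 and 2510 when mice 43, 50 and 64 were dropped in turn, and 2578 with total counts.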

How the data were processed

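Ear skin RNA of 8 mice at 2 ages was sequenced on 16 libraries with single 50-base reads. Per the labels, reads were processed with CASAVA 1.8.4, TopHat2 2.1.0 and HTSeq 0.6.1p1 on mm10. The paper's methods name TopHat with GRCm38, an Ensembl annotation and HTSeq or featureCounts. The authors deposited raw counts per gene, with no normalization and no pooling. The strand setting and the treatment of reads with several matches are not given in the sources used here. The 5 summary lines (18.7% to 21.1% of the counts on genes and summary lines together) were left out, and 0 columns came from elsewhere. Of the 5 lines, 3 were at 0 in all libraries. Nothing says that a library was repeated. The p-values of the paired tests measure how the change within a mouse varied over the mice.

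The test across 21526 genes was the quasi-likelihood test of edgeR 4.0.16 under R 4.3.3, after TMM and filterByExpr, with the mouse as a block and Benjamini-Hochberg adjustment (threshold 0.05). Alternatives were DESeq2 1.42.0, other scalings, no filter, no mouse block and each mouse left out. The pairing comes from the same animal. Deviations from the age means had a median correlation of -0.02 within a mouse (lowest -0.43, highest 0.32) and of -0.01 between mice. CPM are counts scaled to a common library size with TMM factors, and changes of single genes within a mouse are on the log2(CPM + 0.1) scale. An exact sign-flip test served for summed levels and ratios and an exact permutation test for relations, in Python 3.11.15 (numpy 2.4.6, scipy 1.17.1, pandas 2.3.3). Shared 50-base windows were found among the GENCODE M21 transcripts. Scripts were tested on simulated data.

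All members are accounted for: the mRNAs and rRNAs by name, the tRNAs by the 8 highest means (mt-Tm and mt-Tq are named as exceptions), and up to 3 genes of a list by smallest p. Members and lists were chosen with earlier results of these data known.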

Additional observations from a re-analysis of the deposited data

Results flagged for a closer look

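In 12 of 41 sets of 8 values examined, 1 mouse stood apart from the other 7 by the size of the gap to its neighbour, where about 2.05 sets would by chance, and the sets are not independent since they share mice and genes. Mouse 43 was the one in 11 of the 12. Its summed mt-mRNA level at 24 months was 15.5 on the log2 scale, next to 14.9 for the highest other mouse, and its summed mt-tRNA level at 24 months was 6.90 against 6.40. Its tRNA sum changed by -0.82, where the next mouse had -0.03. Its log2 changes of single genes were -0.87 for mt-Co1, -1.08 for mt-Co3, -1.11 for mt-Nd6, -0.68 for mt-Tc, -0.90 for mt-Ta, -1.22 for mt-Ts1, -0.90 for mt-Tn and -0.85 for mt-Ty. The remaining value was the log2 ratio of mt-rRNA to mt-mRNA of mouse 29 at 30 months, -4.89 against -5.56 for the next mouse. Mouse 29 also had the highest rRNA ratio at 24 months, 35.3 per 1000 of mt-mRNA.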

How the results depend on the processing

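No member passed the adjusted threshold under any of the fits run. The count of members at an unadjusted p under 0.05 ran from 0 to 9 over the fits that leave out a mouse. The same count over all genes ran from 1833 (without mouse 21) to 3771 (without mouse 43, 17.6%). Over all genes edgeR called 0 in the reported fit and 3 without the mouse block (no pairing), and the DESeq2 Wald test called 228, of which 1 was in the related lists. Without pairing, which leaves the mean as it is, the mt-tRNA to mt-mRNA ratio change had an exact permutation p of 0.031 before adjustment. The change was smaller and no longer past the threshold with equal weight for each gene, at 0.10 (exact p = 0.375), and with the heavy-strand tRNAs alone, at 0.12 (exact p = 0.375). Leaving out the mice farthest from the median gave r = 0.708 for the nuclear OXPHOS genes and 0.676 for the ribosomal proteins. Of 231 genes in the related lists, 14 had an unadjusted p under 0.05 in edgeR's test, 61 without mouse 43, 7 without mouse 75 and 11 to 17 without any other mouse. For all genes these counts were 2593 (12%), 3771 without mouse 43 (17.6%), 1874 without mouse 75 and 1833 to 2510 without any other mouse. The cause of these differences was not tested.

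Leaving out each mouse in turn gave -0.0044 to 0.21 for the summed mt-mRNA change, -0.061 to 0.099 for mt-rRNA, 0.17 to 0.37 for mt-tRNA (exact p = 0.031 without mouse 43), -0.11 to 0.023 for the mt-rRNA to mt-mRNA ratio, 0.16 to 0.19 for the mt-tRNA to mt-mRNA ratio and -0.19 to -0.054 for the 12S to 16S ratio. Estimates near 0 changed sign. In the same way mt-Rnr1 ran from -0.14 to 0.011, mt-Nd1 from -0.00067 to 0.22, mt-Nd2 from -0.013 to 0.27, mt-Atp8 from -0.066 to 0.11, mt-Co3 from -0.0029 to 0.22, mt-Nd3 from -0.11 to 0.14, mt-Nd4l from -0.21 to 0.063, mt-Nd4 from -0.087 to 0.19, mt-Nd5 from -0.10 to 0.13 and mt-Cytb from -0.056 to 0.17. The other named members stayed above 0, with mt-Rnr2 from 0.0097 to 0.19, mt-Co1 from 0.052 to 0.24, mt-Co2 from 0.054 to 0.24, mt-Atp6 from 0.033 to 0.23, mt-Nd6 from 0.074 to 0.31, mt-Tc from 0.28 to 0.47, mt-Ta from 0.20 to 0.41, mt-Ty from 0.31 to 0.56, mt-Ts1 from 0.17 to 0.48, mt-Tn from 0.19 to 0.43, mt-Te from 0.060 to 0.35, mt-Tl1 from 0.041 to 0.32 and mt-Tp from 0.10 to 0.22. The highest value came without mouse 43 for all of these members but mt-Rnr1, for which it came without mouse 29. mt-Atp8 was 0.00055 with DESeq2 size factors in edgeR and with DESeq2 and 0.0024 with library sizes from nuclear genes, and mt-Cytb was -0.0047 with total counts and -0.0066 without the mouse block.

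Levels of the 7 members with a copy in the chr1 block are uncertain. In all, 10 members share at least 1 window with a nuclear transcript. They include mt-Nd2 (8.2% of its windows), mt-Nd5 (7.6%) and mt-Rnr2 (1.0%). Adding the counts of the 7 chr1 copies left 0.06 for the summed mt-mRNA change and 0.16 for the tRNA ratio. Copies on other chromosomes were not added. Among them, Gm13340 of mt-Co1 held 28468 to 63629 counts per library. Gm13341, a copy of mt-Co2 on chr2, held 14539 to 30639. Windows unique in the genome were not run, because no genome sequence was used here. tRNA counts of 1818 to 4040 per library limit single tRNAs, and 13 tRNAs were too low to test.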
